A study of Mus musculus with 1047 samples.

Results

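Brain cells of aged mice with abundant MHC class II transcripts were taken from a droplet table of 21197 cell barcodes. A cell was kept when it had at least 500 detected genes and at least 100 molecules of H2-Aa, H2-Ab1, H2-Eb1 and Cd74 together per 10000 of its unique molecular identifiers (UMIs), which count captured mRNA molecules. It also had to have no Cd79a (a B cell receptor component), fewer than 2 of the 3 T cell receptor complex genes Cd3d, Cd3e and Cd3g, and fewer than 4 of 7 genes of border macrophages, the resident macrophages of meninges and vessels (Mrc1, Ms4a7, Pf4, F13a1, Cd163, Lyve1 and Cbr2). Of 20495 cells with 500 or more genes, 303 passed the class II threshold. Cd79a then removed 44 of these, the T cell genes 16 and the border macrophage genes 27, so that 216 class II high cells remained. Because class II UMIs chose the cells, their class II levels and every contrast with the other cells are given as a description, with no test.

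The study sequenced microglia and other brain cells of aged white and grey matter. The droplet libraries of the aged table came from C57BL/6J males of 24 months, 2 titled WT white matter and 3 titled WT grey matter, each from a pool of 3 or 4 mice. One of the white matter libraries carries the genotype label ApoeKO against its WT title. The droplet labels refer to the dissociation used for the plate-based cells, for which actinomycin D, a blocker of transcription, is named, and they add a bead step that removes myelin and name no sort. Cell barcodes carry 5 endings (1_1, 1_2, 2_1, 2_2 and 3), and no label ties an ending to a library, so white and grey matter could not be compared in these cells and the 5 endings serve as technical groups. The same rule was also applied to 2730 droplet barcodes of mice labelled ApoeKO (strain B6.129P2-Apoetm1Unc/J, males of 18 months, white matter, pools of 2 mice) and to 847 Smart-seq2 cells of aged animals, which had been sorted for CD45 and CD11b. These came from WT C57BL/6J mice of 18 or 19 months, males but for 1 female, and from animals of both sexes labelled Trem2ko, a knockout of the microglial lipid receptor Trem2, of 18, 20 or 28 months, with white and grey matter of both.

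MHC class II molecules are pairs of an alpha and a beta chain that present peptides from the endosome to CD4 T cells. In C57BL/6 mice H2-Aa and H2-Ab1 encode the I-A pair, H2-Eb1 encodes the beta chain of I-E, whose alpha chain is not made in this strain, and Cd74 encodes the invariant chain that guards the groove until H2-DM exchanges its last fragment for a peptide. Dendritic cells, B cells and a part of border macrophages carry class II constitutively under the coactivator Ciita, whereas resting microglia carry little and gain it on activation.

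Ciita acts through factors that sit on short boxes just upstream of class II genes, the most proximal of which, the Y box, holds the letters ATTGG. The following stretches run from 110 to 31 bases before the annotated start of 4 genes of the pathway that were abundant in the 216 cells or higher there than in the other cells, 5′ to 3′ on the gene's own strand, with the letters TGATTGG in capitals, from the RefSeq promoters on GRCm38.p6. They lie on chromosome 17, at chr17:34287854-34287933 on the minus strand for H2-Aa, and on the plus strand at chr17:34305757-34305836 for H2-Eb1, chr17:34153081-34153160 for H2-DMb1 and chr17:34092269-34092348 for H2-Oa.
H2-Aa: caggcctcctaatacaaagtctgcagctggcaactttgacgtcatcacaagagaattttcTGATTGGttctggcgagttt
H2-Eb1: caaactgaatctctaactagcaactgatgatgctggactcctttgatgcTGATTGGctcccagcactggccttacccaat
H2-DMb1: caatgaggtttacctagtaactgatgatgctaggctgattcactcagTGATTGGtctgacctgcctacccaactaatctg
H2-Oa: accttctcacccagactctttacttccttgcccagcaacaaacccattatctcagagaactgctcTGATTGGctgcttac
The capitals begin 50 bases before the start in H2-Aa, 61 in H2-Eb1, 63 in H2-DMb1 and 45 in H2-Oa. The same letters lay within 250 bases upstream of H2-Eb2, H2-DMb2 and H2-Ob, and were not in that window of H2-DMa, Ctss, B2m, H2-K1, Ccr2, Cd209a or Mgl2. The promoters of H2-Ab1, Cd74 and Ciita were not analysed here. Of all 32851 RefSeq promoters, 7.23% hold TGATTGG on either strand within 250 bases upstream, and 33.8% hold the shorter ATTGG, which is part of it.

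The 216 cells held a median of 7860 UMIs (973 to 37849), against 7186 in the other 20279 cells with 500 or more genes. They made up 0.763% of cells with barcode ending 1_1 (18 of 2360), 1.58% with ending 1_2 (67 of 4230), 0.755% with ending 2_1 (30 of 3975), 0.803% with ending 2_2 (34 of 4237) and 1.18% with ending 3 (67 of 5693). The exact binomial 95% interval of ending 1_2, 1.23% to 2.01%, lay above those of 1_1 (0.453% to 1.20%), 2_1 (0.510% to 1.08%) and 2_2 (0.556% to 1.12%). These intervals, like all others given for cells, cover counting error only. In all, 41 barcode sequences occurred under 2 or more endings, and 1 class II high cell carried such a barcode. A doublet score of 0.25 or more from scrublet marked 3 of the 216 cells and 337 of the 20495.

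The summed class II level per cell had a lowest value of 100.5, a median of 512 and a highest value of 1604 UMIs per 10000. The cells formed no narrow band at the threshold: 38 lay between 100 and 200, 38 between 200 and 400, and 140 at 400 or more. The 5 cells just inside the threshold had 100.5, 101, 101.9, 102.5 and 103.5 UMIs per 10000, and the 5 just outside had 93.6, 95.2, 95.3, 98.1 and 98.8. A further 55 cells that met the other criteria had between 50 and 100. All 4 genes were detected in every one of the 216 cells. Cd74 had a median of 234 UMIs per 10000 per cell (26.5 to 830), H2-Aa 103 (3.91 to 337), H2-Ab1 87.9 (0.661 to 283) and H2-Eb1 82.0 (2.62 to 269). Per-cell levels of the 4 genes ranked alike, with Spearman rho of 0.81 to 0.88 over 216 cells, a description of cells that were chosen by the sum of these genes and share libraries. By barcode ending the median class II level was 525 in 1_1, 512 in 1_2, 338 in 2_1, 414 in 2_2 and 559 in 3. Within the 4 genes, Cd74 held 46.8% of class II UMIs in class II high cells and 74.0% in cells of a microglia gate. H2-Eb1 held 15.6% in class II high cells and 3.86% in the microglia gate. In a border macrophage gate Cd74 held 45.3% and H2-Eb1 16.1%, close to the shares in class II high cells.

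The microglia gate, used here as a yardstick, took 11258 cells with 5 or more of 8 microglia markers (P2ry12, Tmem119, Sall1 and Cx3cr1 among them), a class II level under 100, fewer than 2 of the 7 border genes, fewer than 2 of 8 dendritic cell genes, fewer than 2 Cd3 genes and no Cd79a. Low levels of those genes in this gate therefore follow in part from its definition. A border macrophage gate took 180 cells with 4 or more of the 7 border genes, and a T cell gate 1165 cells with 2 or more of the 3 Cd3 genes. Their median UMIs were 7705, 6926 and 6629. The levels below are UMIs per 10000 of the summed cells of a group, with exact Poisson 95% intervals.

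The label of class II high cells held for class II but not for 1 cell type. At least 2 of 8 dendritic cell genes (Flt3, Zbtb46, Xcr1, Clec9a, Cd209a, Clec10a, Ccr7 and Ccl22) were detected in 44 of the 216 cells (20.4%, exact binomial 95% interval 15.2% to 26.4%). The share was 0.515% in the T cell gate, where Ccr7, which T cells also carry, was detected in 3.35% of cells, and 0.513% in all other cells, while the microglia gate holds no such cell by definition. In the border macrophage gate it was 34.4%, where Cd209a and Clec10a are also present, so this gate does not separate dendritic cells from border macrophages. Flt3, the receptor for the growth factor of dendritic cells, or Zbtb46, their transcription factor, was detected in 52 cells (24.1%). At least 3 of the 8 microglia markers were detected in 150 cells (69.4%, 62.8% to 75.5%), against 63.0% in all other cells, 87.8% in the border macrophage gate and 16.7% in the T cell gate, so this count does not separate microglia from border macrophages. At least 2 of 6 monocyte genes (Ly6c2, Ccr2, Plac8, Chil3, Ms4a4c and Fn1) were detected in 90 cells (41.7%, 35.0% to 48.5%), against 1.01% in the microglia gate and 42.2% in the T cell gate, since T cells carry some of these genes. With 215 cells thinned to 1000 UMIs each, leaving out 1 shallower cell, the shares were 4.65%, 20.5% and 16.3%.

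By barcode ending, 3 of 18 cells had dendritic cell genes in 1_1, 14 of 67 in 1_2, 3 of 30 in 2_1, 5 of 34 in 2_2 and 19 of 67 in 3. Monocyte genes were found in 61.1% of class II high cells in 1_1 and 59.7% in 1_2, against 13.3% in 2_1, 38.2% in 2_2 and 32.8% in 3. The exact intervals of 1_2 (47.0% to 71.5%) and 2_1 (3.76% to 30.7%) did not overlap. Microglia markers were found in 66.7%, 79.1%, 80.0%, 61.8% and 59.7% of the cells of 1_1, 1_2, 2_1, 2_2 and 3. What the endings stand for is not given in the labels, so none of these values can be tied to a tissue or to animals.

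Clustering of the 216 cells without the genes of the rule gave 9 clusters, and the plot of class II level by cluster shows each cell. Dendritic cell and monocyte names were given where markers of that type were among the 10 leading genes of a cluster. The exception was Cox6a2, of the plasmacytoid dendritic cell list, a leading gene of the microglia-like cluster in 12 of its cells. That cluster was not named for it. The microglia-like cluster has none of its markers there and was named because all 12 fixed microglia markers were detected in it and summed higher than in any other of the 9 clusters, and the other clusters are called by leading genes. A level of a gene inside a cluster that it helped to define is a description.

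**Figure D1:**
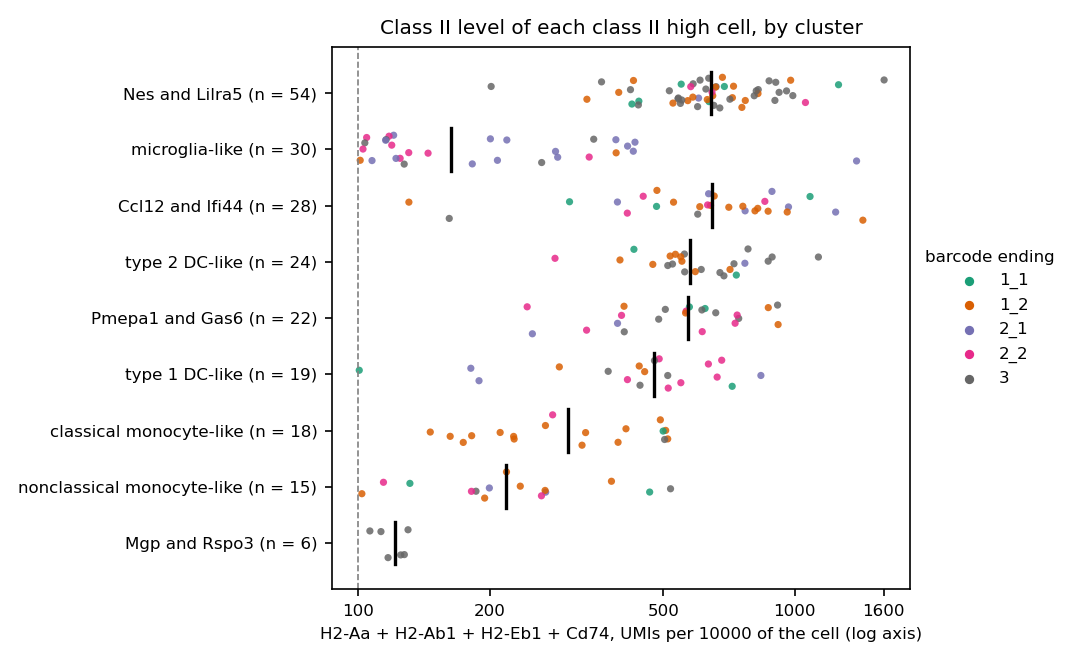
Summed UMIs of H2-Aa, H2-Ab1, H2-Eb1 and Cd74 per 10000 UMIs of each of the 216 class II high cells (x axis, log scale), by cluster (rows), coloured by barcode ending. Black bars are cluster medians and the dashed line is the threshold of 100. Medians lie between 477 and 648 in 5 clusters, at 302 and 219 in the 2 monocyte-like clusters, at 164 in the microglia-like cluster and at 121 in the Mgp and Rspo3 cluster.

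The type 2 dendritic cell-like cluster held 24 cells with a median of 14674 UMIs and a median class II level of 576 (282 to 1134). It was led by Ccl17, a chemokine that draws T cells through Ccr4, and by Cd209a, a C-type lectin of type 2 dendritic cells. Cd209a stood at 15.5 UMIs per 10000 (14.3 to 16.7) and was detected in 22 of the 24 cells, against 0.07 in all other cells and 7.28 in the border macrophage gate. Mgl2, a galactose-type lectin, stood at 18.2, and Kmo, an enzyme of the kynurenine pathway, at 0.84. Mgl2 was also detected in 74.1% of the Nes and Lilra5 and 60.7% of the Ccl12 and Ifi44 cluster. Not every gene of the type 2 list was high here. Clec10a stood at 1.67, against 1.95 in the classical monocyte-like cluster and 1.88 in the border gate. Sirpa stood at 1.53, against 5.61 in the microglia gate, and Clec4a4 and Cd209d had 1 and 3 UMIs here. Clec4b1, Tnip3 and Ifitm1 were highest here among the clusters. Ccl17 reached 8.17 (7.31 to 9.10) in this cluster, but 276 of its 345 UMIs in class II high cells lay in 1 cell of ending 1_1. H2-DMb2, a beta chain gene of the peptide exchanger H2-DM, was detected in all 24 cells at 3.94 (3.35 to 4.60), against 0.06 in the microglia gate. Irf4, a transcription factor of type 2 dendritic cells, stood at 0.52 and Klf4, which acts in the same lineage, at 1.92, while Irf8 stood at 0.37.

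The type 1 dendritic cell-like cluster held 19 cells with a median of 11312 UMIs and a median class II level of 477 (100.5 to 837). Type 1 dendritic cells cross-present antigen to CD8 T cells and depend on Irf8, Batf3 and Id2. Irf8 stood at 11.8 UMIs per 10000 in this cluster, Id2 at 10.4 and Batf3 at 1.17, against 5.00, 0.80 and 0.32 in the microglia gate. In the T cell gate Id2 stood at 7.00. Cadm1, of the type 1 list, stood at 0.61 in 4 of the 19 cells, against 0.72 in all class II high cells and 2.37 in the microglia gate. The other genes of that list were highest here among the clusters. Nfil3, of the dendritic cell transcription factor list, had 0 UMIs here. The chemokine receptor Xcr1 (2.20, 1.62 to 2.93) and the dead-cell receptor Clec9a (1.64, 1.14 to 2.28) were each detected in 7 of 19 cells, and at least 1 of both in 9. In the microglia gate Xcr1 stood at 0.0028 and Clec9a at 0.0015. Flt3 was detected in 12 of the 19 cells and Zbtb46 in 8. The cluster was not uniform, since 2 cells had Ccr7, the receptor that guides mature dendritic cells to lymph nodes, and neither of them had Xcr1 or Clec9a. Ccl22, a second ligand of Ccr4, was detected in 3 of the 19 cells. Microglia markers were lower here than in any other cluster but the Mgp and Rspo3 cluster, with a median summed level of the 8 markers of 2.37 per cell, against 196 in the microglia gate and 1.82 in the T cell gate.

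The classical monocyte-like cluster held 18 cells and had the highest median depth, 17568 UMIs, with a median class II level of 302 (146 to 512). The extracellular matrix genes Fn1 (8.71 UMIs per 10000, 7.67 to 9.86) and Vcan (1.67), the clotting factors F10 and F7, and the chemokine receptor Ccr2 (22.7), which brings monocytes out of the marrow, were high there. Ccr2 stood at 0.06 in the microglia gate and 0.85 in the border macrophage gate. Of its 18 cells, 15 carried barcode ending 1_2, none carried 2_1 and each of the others held 1, so the levels of this cluster are largely those of 1 barcode group. The nonclassical monocyte-like cluster held 15 cells from all 5 endings, with a median class II level of 219 (102 to 520). It was led by Ace, the angiotensin-converting enzyme, at 5.47 UMIs per 10000 (4.46 to 6.64), with Treml4 (2.09), Cd300e (1.61) and Nr4a1 (4.02), the nuclear receptor on which these patrolling cells depend. Ccr2 stood at 14.7 in this cluster. Plac8 was higher here (48.1) than in the classical monocyte-like cluster (5.96), and the 10 classical monocyte markers summed to 86.8 in the nonclassical and 48.8 in the classical monocyte-like cluster.

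The microglia-like cluster held 30 cells with a median class II level of 164 (101 to 1387), and 16 of them lay under 200. Its 12 fixed microglia markers were all detected and summed to 110 UMIs per 10000 (106 to 113), against 219 in the microglia gate. P2ry12, a purine receptor of resting microglia, stood at 7.29 against 19.7 in that gate, and Tmem119 at 3.34 against 8.02. None of those markers was among its 8 leading genes, which were Cst7, Gpnmb, Klk8, Naalad2, Lag3, Npnt, Cox6a2 and Khdrbs3. Cst7, a protease inhibitor of activated microglia, stood at 3.64 (3.02 to 4.36) in 17 of 30 cells, against 1.23 in the microglia gate. Gpnmb, a glycoprotein of lipid-laden phagocytes, stood at 5.02 against 0.13, but 145 of the 174 Gpnmb UMIs in class II high cells lay in 1 cell. Apoe, a lipid carrier that activated microglia make, stood at 486 against 121, and Lyz2, lysozyme of myeloid cells, at 68.2 against 13.2. In the border macrophage gate Apoe stood at 373 and Lyz2 at 69.9. Lyz2 was 62.3 in the Ccl12 and Ifi44, 60.5 in the Pmepa1 and Gas6 and 178 in the classical monocyte-like cluster. Of the 28495 Apoe UMIs in class II high cells, 3421 lay in 1 cell of the microglia-like cluster. Of the 30 cells, 15 carried ending 2_1 and 8 carried 2_2. Mature dendritic cell genes were found here too. Ccr7 was detected in 1 of the 30 cells, with 21 of the 56 Ccr7 UMIs of class II high cells. Cacnb3 (7 UMIs) and Ccl22 (3 UMIs) were each detected in 1 cell.

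A further 3 clusters, 104 cells together (54, 28 and 22), were given no cell type name. Their median class II level was 642 in the Nes and Lilra5 cluster, 648 in the Ccl12 and Ifi44 cluster and 569 in the Pmepa1 and Gas6 cluster. The microglia marker sum over 12 genes was 37.5, 39.8 and 33.6 UMIs per 10000 in the 3 clusters, against 219 in the microglia gate and 65.1 in the border macrophage gate. The 8 border macrophage markers summed to 9.53, 15.7 and 16.7, against 81.5 in the border gate and 0.17 in the microglia gate. The rule had kept out cells with 4 or more of 7 border genes, which limits these sums from above. Mrc1, the mannose receptor, was detected in 47.2% of the 216 cells, Ms4a7 in 37.0% and Pf4 in 22.7%, while Cd163, Lyve1 and Cbr2 were each in 3.24% or fewer.

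The Ccl12 and Ifi44 cluster (28 cells) was led by interferon-induced genes and by Siglec1, a sialic acid receptor of macrophages. Ccl12, a ligand of Ccr2, stood at 7.28 UMIs per 10000 (5.92 to 8.86), against 2.21 in the microglia gate and 4.83 in the border gate. Of the 13 interferon response genes in the fixed list, Isg15 stood at 4.04 there, against 0.27 in the microglia gate. Ifit3 stood at 3.90 against 0.43 and Bst2 at 10.8 against 2.02. Cxcl10, a chemokine for T cells from another list, stood at 1.99 against 0.14. It rested on few cells, with 45 UMIs in 5 class II high cells. Over all class II high cells, Isg15 stood at 6.38 in ending 1_1, against 0.31 to 0.69 in the other endings. Ifit3 stood at 2.83 in 1_1 against 0.25 to 0.94, Bst2 at 5.78 against 2.24 to 3.93, and Cxcl10 at 2.17 against 0 to 0.14. Of the 28 cells of the Ccl12 and Ifi44 cluster, 3 carried 1_1 and 13 carried 1_2. The Nes and Lilra5 cluster held 54 cells, 28 of them in ending 3 and 16 in 1_2. Over the other class II high cells it was led by genes known from neural progenitors and astrocytes (Nes, Ntrk2, Ptprz1 and Cspg5). The immune genes Il2ra and Lilra5 also led it. Ntrk2 (0.46 against 0.44 in the microglia gate), Ptprz1 (0.65 against 0.55) and Cspg5 (0.92 against 0.66) were near the level of that gate. Nes stood at 0.58 against 0.21. In this cluster the 7 astrocyte markers summed to 11.8 UMIs per 10000 (10.8 to 12.9) and each was detected. The sum was 10.3 in the microglia gate and 43.7 in all other cells. The part of astrocyte RNA in this cluster's leading genes was not tested. Lilra5, an activating receptor of monocytes and macrophages, stood at 1.79 (1.41 to 2.25) and was detected in 35 cells of the cluster. The Pmepa1 and Gas6 cluster (22 cells) had the lowest depth, a median of 3141 UMIs, and its 8 leading genes had folds over the other class II high cells from 4.38 for Pmepa1 to 7.55 for Mtx1.

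The Mgp and Rspo3 cluster held 6 cells, all with ending 3 and all with a class II level between 106 and 130, close to the threshold. Mgp, an inhibitor of calcification, stood at 161 UMIs per 10000, and the 4 fibroblast markers summed to 17.1, with Lum at 0. Ctss, the class II pathway's main protease, stood at 0.12 in these 6 cells, and all 7 T cell and all 7 B cell markers were at 0. The 12 microglia markers summed to 14.5, of which Sparc held 11.6, and the 7 astrocyte markers summed to 23.3 with Gfap at 0.

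**Figure D2:**
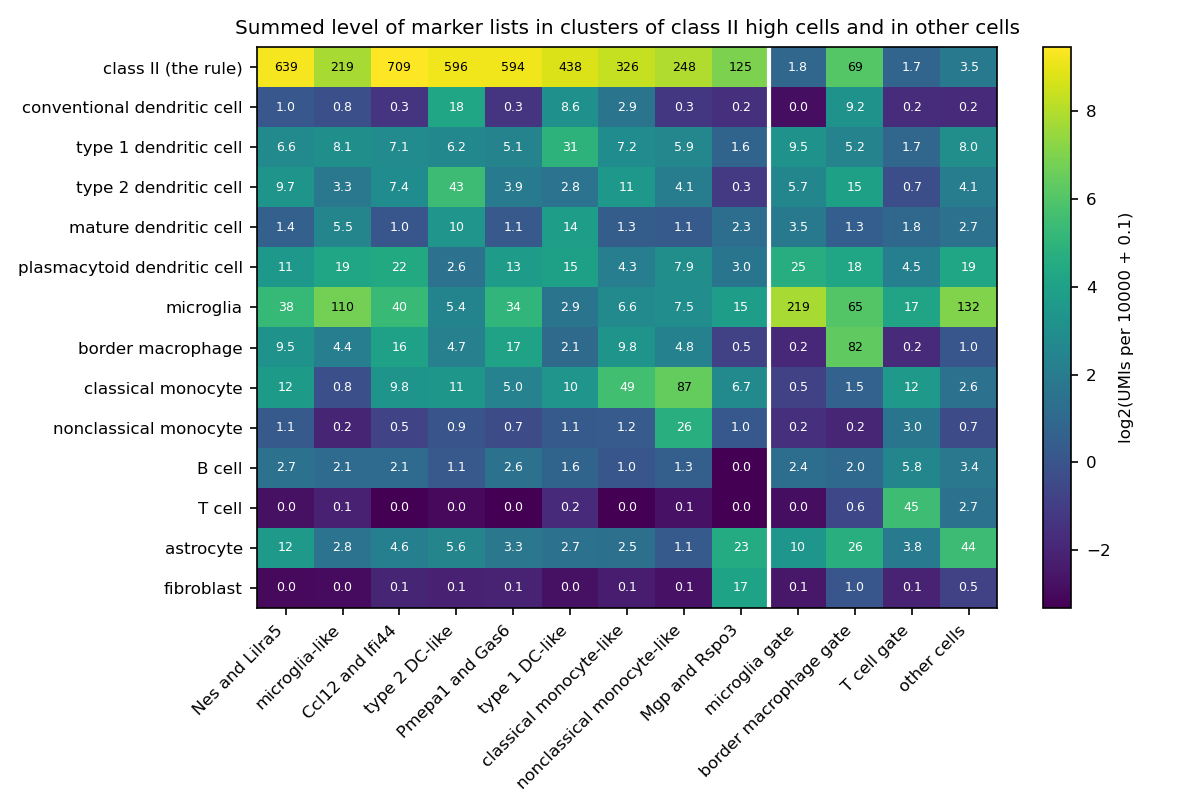
Summed UMIs per 10000 of 14 marker lists (rows) in the 9 clusters of class II high cells and, right of the white line, in the microglia, border macrophage and T cell gates and in all other cells (columns). Colour is log2(UMIs per 10000 + 0.1) and numbers are the levels. The microglia list sums to 110 in the microglia-like cluster and 219 in the microglia gate, the nonclassical monocyte list to 26.4 in its cluster, and the class II list to 125 or more in every cluster because it chose the cells.

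The pathway that serves class II was described by a list of 14 genes, 13 of them in the table. Genes with at least 100 UMIs over both groups were counted, and a fold of 2 or more was called higher or lower. Of 12 counted class II presentation genes, 5 were higher in class II high cells than in the other cells and 1 was lower, where over all 15506 counted genes 5.71% were higher and 28.1% lower. The median log2 ratio was 0.57 over the list and -0.45 over all counted genes. Since class II levels chose the cells, nothing is read from these shares. Against the border macrophage gate 6 of 10 counted genes of the list were higher and Lgmn was lower, where 6.49% of 4992 genes were higher and 12.9% lower. Against the microglia gate 4 of 12 were higher (H2-DMa, H2-DMb1, H2-DMb2 and Ciita) and Ctss and Lgmn lower, where 7.79% of 12886 genes were higher and 19.1% lower.

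The coactivator Ciita stood at 1.65 UMIs per 10000 (1.49 to 1.84) in class II high cells, against 0.01 in the other cells, a ratio of 127. It was detected in 53.2% of class II high cells and 0.651% of the others. Its level was 1.51 in cells of ending 1_1, 1.92 in 1_2, 0.82 in 2_1, 1.77 in 2_2 and 1.70 in 3, lowest in 2_1. By cluster Ciita ran from 0.12 in the Mgp and Rspo3 cluster and 0.28 in the microglia-like cluster to 2.48 in the type 1 dendritic cell-like cluster. H2-DMa stood at 8.20, against 1.66 in the other cells, and H2-DMb1 at 7.55, against 0.90. H2-DMa was 7.71, 9.89, 5.53, 5.41 and 8.73 in class II high cells of endings 1_1, 1_2, 2_1, 2_2 and 3, all above the level of the other cells.

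H2-Oa, the alpha chain of the H2-O dimer that restrains H2-DM, stood at 0.99 in class II high cells, against 0.35 in the other cells. It was highest in the type 1 and type 2 dendritic cell-like clusters (3.14 and 2.12), 1.13 in the microglia-like cluster, and 0.28 or less in the other 6 clusters. H2-Ob, its partner, stood at 0.44 in class II high cells and 0.25 in the other cells. The endosomal proteases of the class II list, Lgmn and Ctss, were not among the higher genes. Lgmn, an asparaginyl endopeptidase of the endosome, stood at 5.71 in class II high cells, against 16.2 in the other cells, and at 0.47 and 0.42 in the type 2 and type 1 dendritic cell-like clusters, against 26.6 in the microglia gate. Ctss, which trims the invariant chain, stood at 29.6 in class II high cells and 42.0 in the other cells, and at 71.2 in the microglia-like cluster, against 69.1 in the microglia gate. The factors that bind the class II boxes, Rfx5, Rfxap and Rfxank, stood at 0.11, 0.29 and 0.08 in class II high cells, against 0.14, 0.28 and 0.14 in the other cells. Correlations over the 216 cells between H2-Aa and H2-DMa (rho 0.52) or H2-DMb1 (rho 0.52) were larger than with Ciita (0.18), H2-DMb2 (0.15) or B2m (-0.05), which is a description of cells that share libraries and differ in depth.

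Class I presentation, which serves CD8 T cells, had 2 of 13 counted genes 2-fold or more higher, the peptide transporter Tap1 and the immunoproteasome subunit Psmb8, and none lower. Its median log2 ratio was 0.53. For this and each list that follows the same shares of all counted genes apply, 5.71% higher and 28.1% lower, with the median of -0.45, and nothing is read from a list's count. B2m, the class I light chain, stood at 18.6, against 17.4 in the other cells, H2-K1 at 12.9 against 8.68 and H2-D1 at 14.9 against 9.09. The nonclassical monocyte-like and microglia-like clusters were highest in B2m (32.0 and 33.1), and the type 2 dendritic cell-like cluster, apart from the Mgp and Rspo3 cluster (3.14), was lowest (9.62).

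Costimulatory transcripts were sparse. The 12 genes of the list summed to 3.35 UMIs per 10000 (3.11 to 3.61) in class II high cells. Of 10 counted, Cd40 (0.17 against 0.03 in the other cells) and Tnfsf9 (0.11 against 0.02) were 2-fold or more higher, and Cd80 (0.03 against 0.07) and Lag3 (0.32 against 1.41) lower, with a median log2 ratio of 0.03 and, over all counted genes, 5.71% higher and 28.1% lower. Cd86, the main costimulator of myeloid cells, stood at 0.73, against 1.05 in the other cells and 1.72 in the microglia gate, where the type 2 dendritic cell-like cluster had 0.39.

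Of 11 dendritic cell transcription factors, Irf4, Batf3 and Zbtb46 were higher and Tcf4, a factor of plasmacytoid dendritic cells, was lower (2.01 against 5.60), beside 5.71% and 28.1% of all counted genes. The list's median log2 ratio was 0.66. Zbtb46 stood at 0.20, against 0.06 in the other cells, and at 0.52 in the type 2 and 0.66 in the type 1 dendritic cell-like clusters. Of the plasmacytoid markers Ly6d was at 0, Ccr9 was detected at 0.02 and Siglech at 1.52, against 13.3 in the microglia gate, where it marks microglia. Other genes of that list were present. Irf8, shared with the type 1 list, stood at 3.3 against 3.1 in the other cells. Bst2, shared with the interferon response list, was detected in 172 class II high cells and Cox6a2 in 17. Zeb2 stood at 0.14 in the type 1 dendritic cell-like cluster and at 8.05 and 8.41 in the classical and nonclassical monocyte-like clusters.

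Of 15 counted chemokines and cytokines, 5 were higher in class II high cells (Ccl17, Ccl22, Cxcl9, Cxcl16 and Il1b) and 5 lower (Ccl3, Ccl4, Ccl5, Ccl8 and Il18), beside 5.71% higher and 28.1% lower over all counted genes. The list's median log2 ratio was 0.43. Several of these rested on few cells. Of the Ccl22 UMIs in class II high cells 55.6% lay in 1 cell, as did 56.5% of those of Cxcl9 and 80.0% of those of Ccl17. Cxcl16, a membrane-bound chemokine, was spread more widely, at 2.57 against 0.92 in the other cells, with 4.42, 4.35, 5.30 and 3.86 in the Nes and Lilra5, microglia-like, Ccl12 and Ifi44, and Pmepa1 and Gas6 clusters. Il1b, the inflammatory cytokine, stood at 0.78 (51 cells), with 2.01 in the Nes and Lilra5 and 2.20 in the nonclassical monocyte-like cluster, against 0.10 in the microglia gate. Il12b, a cytokine of T helper priming, had 0 UMIs in the 216 cells.

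Of 13 interferon response genes, 5 were 2-fold or more higher (Ifit2, Irf7, Oasl2, Ifitm3 and Gbp2) and Iigp1 was lower, with a median log2 ratio of 0.82, beside 5.71% and 28.1% of all counted genes. By ending, Gbp2 was highest in 1_1, at 3.37 against 0.11 to 1.24 in the others. Ifit2 and Irf7 were also highest in 1_1, Oasl2 in 2_2 and Ifitm3 in 1_2. Ifitm3, a membrane restriction factor, stood at 14.9 against 3.31 in the other cells, and was highest in the nonclassical (45.4) and classical (32.0) monocyte-like clusters. Of 12 counted genes of activated white matter microglia, Itgax, Axl, Lgals3, Lyz2, Capg and Gpnmb were higher and Lpl and Cd63 lower, with a median log2 ratio of 0.75 and the same 5.71% and 28.1% over all counted genes. Lgals3, a galectin, stood at 8.26 against 1.18 in the other cells and peaked at 20.4 in the classical monocyte-like cluster rather than in the microglia-like cluster (8.18). Apoe stood at 4.21 in the type 2 and 3.18 in the type 1 dendritic cell-like clusters, against 121 in the microglia gate and 56.8 in the T cell gate.

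Of 8 cell cycle genes, 6 were higher (Mki67, Top2a, Birc5, Cdk1, Ccnb2 and Pclaf) and none lower, with a median log2 ratio of 1.81, beside 5.71% and 28.1% of all counted genes. The cells behind this were few. Mki67, a nuclear protein of dividing cells, had 118 UMIs in 8 class II high cells, and 33.1% of them lay in 1 cell. At least 3 of those 6 genes were detected in 7 of the 216 cells (3.24%), 3 of them in the Nes and Lilra5 cluster, against 0.720% of the other cells and 1.29% of the T cell gate. The heat map of list genes gives these levels by cluster.

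**Figure D3:**
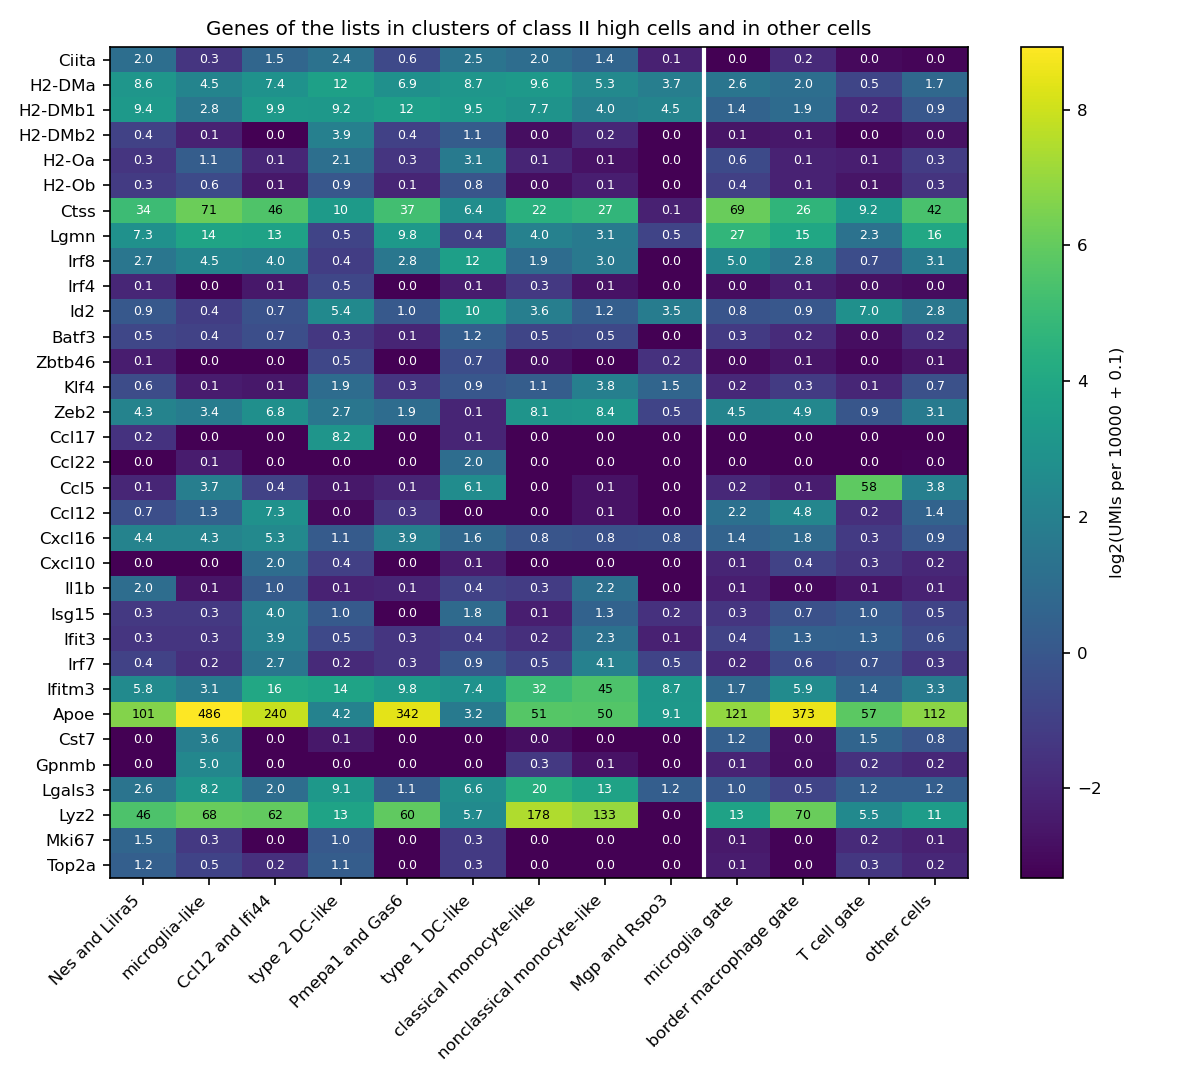
UMIs per 10000 of genes of the fixed lists (rows) in the 9 clusters of class II high cells and, right of the white line, in the microglia, border macrophage and T cell gates and in all other cells (columns). Colour is log2(UMIs per 10000 + 0.1) and numbers are the levels. Irf8 is 11.8 in the type 1 dendritic cell-like cluster, H2-DMb2 is 3.94 in the type 2 one, and Ifitm3 is 45.4 in the nonclassical monocyte-like cluster.

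Among the 20 genes with the largest ratio to the other cells, Clec4b1, a C-type lectin, stood at 0.80 UMIs per 10000 (0.69 to 0.93), against 0.0025 in the other cells, a ratio of 323, and was detected in 32.4% of class II high cells. Mgl2 stood at 5.02 (4.72 to 5.33) against 0.021, a ratio of 240, with 69.2% of its UMIs in the type 2 dendritic cell-like cluster. It was 8.49 in ending 1_1, 3.65 in 1_2, 2.34 in 2_1, 1.01 in 2_2 and 8.58 in 3. Ccr2 stood at 9.32 (8.91 to 9.74) against 0.22, a ratio of 42.2, and was detected in 65.3% of class II high cells and 4.33% of the others. By ending, Ccr2 was 9.39 in 1_1, 14.3 in 1_2, 1.70 in 2_1, 5.91 in 2_2 and 8.35 in 3. Plbd1, a lysosomal phospholipase, was the most widely detected of the 20, in 67.6% of class II high cells, at 3.05 against 0.042.

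Clec12a, an inhibitory lectin of myeloid cells, stood at 1.94, against 0.04 in the other cells, and was 3.44 in the Pmepa1 and Gas6 cluster and 0.40 in the microglia-like cluster. Napsa, an aspartic protease of the lysosome, stood at 3.04 against 0.074, and Flt3 at 0.38 against 0.0093. The other 13 were Hepacam2, Ciita, Sirpb1a, Dpep2, Kmo, Cd209a, Sirpb1c, Klra2, Ryr1, Cd300lg, Klrb1b, Gpr141 and Rgs18, with ratios from 31.6 for Rgs18 to 173 for Hepacam2. In the border macrophage gate 2 of the 20 were as high or higher, Cd209a (7.28 against 3.28 in class II high cells) and Rgs18 (0.70 against 0.55). The microglia gate held 0.065 UMIs per 10000 or less of each of the 20.

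The 10 genes with the smallest ratio included Ttr, the transthyretin of choroid plexus (0.81 against 61.3 in the other cells, 75.5-fold lower), Enpp2 (66.5-fold lower), Pcp4l1 (65.0-fold lower) and Gria2, a glutamate receptor subunit (39.9-fold lower). Vegfa, Rarres2 and Ly6c1 were 34.9-fold to 36.7-fold lower. Rmst and Ppp1r1b had 3 UMIs each in class II high cells (0.014, 0.0029 to 0.041), against 0.67 and 0.49 in the other cells, and Lef1 had 2 (0.0094, 0.0011 to 0.034), against 0.48. Ttr was still detected in 31.5% of class II high cells and 38.4% of the other cells.

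**Figure D4:**
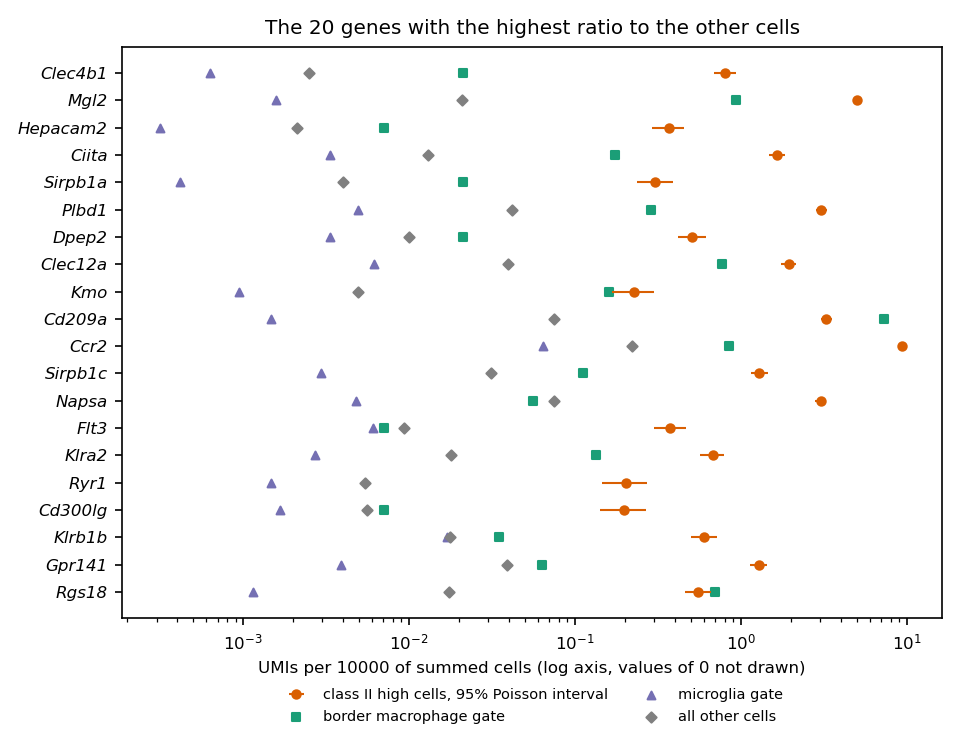
UMIs per 10000 of summed cells (x axis, log scale) of the 20 genes with the highest ratio to the other cells (rows, largest ratio on top). Circles are the 216 class II high cells with exact Poisson 95% intervals, squares the border macrophage gate, triangles the microglia gate and diamonds all other cells. Class II high cells lie right of the other symbols except for Cd209a and Rgs18, where the border macrophage gate is higher.

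Among droplet barcodes of the ApoeKO table, 10 of 2730 met the rule (0.366%, exact binomial 95% interval 0.176% to 0.673%), 3 of 1085 whose names start with L7 and 7 of 1645 with L8. Apoe, the deleted gene, stood at 0.177 UMIs per 10000 over all L7 cells and at 62.0 over all L8 cells, so the L8 barcodes go against the ApoeKO label and the values are given by barcode start only. Median depth was 4740 UMIs in L7 and 3272 in L8. None of the 10 cells had 2 or more dendritic cell genes, 6 had 3 or more microglia markers and 3 had 2 or more monocyte genes. Ciita was detected in 4 of the 10 at 1.77 UMIs per 10000 (0.886 to 3.17), Ccr2 in 7 at 10.6 (8.23 to 13.5), Clec12a in 8 at 5.00 (3.397 to 7.096) and Plbd1 in 8 at 2.74 (1.597 to 4.39). Cd209a had 0 UMIs, with an exact Poisson upper bound of 0.595. Mrc1 (5.00) and Ms4a7 (5.48) were present in 8 and 4 of the 10 cells.

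In Smart-seq2 cells, where the rule was applied to reads in place of UMIs, 3 of 847 cells passed. These cells were sorted for CD11b, and Cd79a and Cd3e were not used here, so the rule was applied without them. Trem2 was first checked as the target of the knockout label. In white matter it was 2.74, 3.78, 7.07, 4.11 and 20.3 reads per 10000 in the animals labelled Trem2ko A8, A9, A10, A11 and A12, and 17.9 to 39.7 in 6 WT animals. In grey matter it was 6.05, 5.90, 3.76, 3.45 and 14.5 in the same Trem2ko-labelled animals and 21.3 to 52.1 in 7 WT animals, so A12 went against its label: its white matter value fell among those of WT animals, and its grey matter value was lower than any WT one. A13, labelled Trem2ko, had under 5 cells per tissue and was left out.

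The passing cells were 1 of 16 in WT white matter of A5, 1 of 31 in Trem2ko-labelled white matter of A9 and 1 of 35 in Trem2ko-labelled grey matter of A9. They had class II levels of 124.2, 129.8 and 158.3 reads per 10000. Of the 8 microglia markers these cells had 7, 8 and 8, of the 6 monocyte genes 0 each, and of the 8 dendritic cell genes 1, 0 and 0. P2ry12 stood at 4.57, 6.11 and 34.8 reads per 10000 in the 3 cells, and Cst7 at 8.14 in the cell of A5 and at 0 in both cells of A9.

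The share of passing cells averaged 1.04% ± 2.55 in white matter and 0% ± 0 in grey matter of WT mice (SD, n = 6 animals with 5 or more cells in both tissues). The mean difference, white minus grey, was 1.04 percentage points. Only A5 had a share above 0, so the exact paired sign-flip permutation test over animals could return no value but p = 1 and gives no evidence either way. In Trem2ko-labelled animals the share averaged 0.645% ± 1.44 in white and 0.571% ± 1.28 in grey matter (SD, n = 5), with a difference of 0.0737 percentage points. Only A9 had shares above 0, so the same exact permutation test was again bound to give p = 1. With 1 passing cell in all of WT white matter (136 cells) and none in WT grey matter (133 cells), a difference between tissues was not detectable at this number of cells. WT and Trem2ko-labelled animals were not compared, and the latter include A12, which went against its label.

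**Figure D5:**
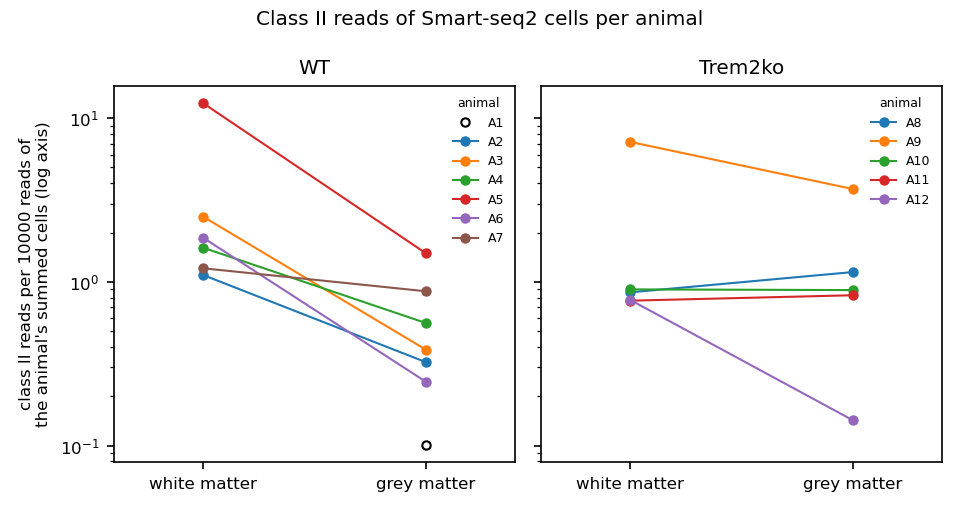
Class II reads (H2-Aa, H2-Ab1, H2-Eb1 and Cd74) per 10000 reads of all Smart-seq2 cells of an animal (y axis, log scale) in white and grey matter, for WT (left) and Trem2ko-labelled animals (right). Lines join the tissues of 1 animal and the open circle is A1, which had grey matter only. White matter of A5 (12.4) and A9 (7.18) stands above the other animals.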

How the data were processed

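Droplet libraries (10x 3′ v3.1) and Smart-seq2 plates were measured. The submitters' processing notes name mm10, Cell Ranger 4, Trim Galore, FastQC and bcl2fastq. The deposited droplet tables hold raw UMI counts, and the authors' Smart-seq2 table holds raw read counts. The Smart-seq2 aligner is not given in the sources used here. Of the ApoeKO droplet table, only columns whose names start with L7 or L8 were used, and the other 11224 columns were not.

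The cells, gates and lists were chosen with earlier results of these data known. UMIs were summed per group and scaled per 10000 (Python 3.11.15, scipy 1.17.1). Ratios use a floor of 3 counts over the group. The droplet table has no labelled replicates, so no test compares its cells. Scrublet in scanpy 1.11.5 was run per barcode ending, with a score of 0.25 in place of its automatic threshold, chosen after seeing the data. The 216 cells were clustered on 1500 variable genes without the 15 genes of the rule (12 components, 10 neighbours, leidenalg 0.10.2, resolution 1). Named genes were the 20 with the largest ratio and a UMI in 10% of class II high cells, the 10 with the smallest, 8 per cluster with a UMI in 20% of its cells, and genes of the lists. Smart-seq2 shares were tested with exact permutation over animals, paired by the animal names in the labels. Ratios and tests were tested on simulated data. Smart-seq2 cells had a median of 58126 to 563115 reads per animal and tissue, among animals with 5 or more cells. The smallest p-values reflect the number of animals. One microglia marker is counted in the marker sums and gates but is not reported here by itself.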

Additional observations from a re-analysis of the deposited data

Results flagged for a closer look

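In Smart-seq2 cells 1 animal stood apart from the others of its group in 3 of 4 groups, once by the share of cells past the class II threshold and once by the class II reads of all its cells. The share was 6.25% in WT white matter of A5, against 0% in the other 5 animals, 3.23% in Trem2ko-labelled white matter of A9 and 2.86% in Trem2ko-labelled grey matter of A9, against 0% in the other 4 animals of each group. Class II reads were 12.4 per 10000 in WT white matter of A5, against 2.51 in the next animal. They were 7.18 in white matter of A9, against 0.90, and 3.69 in its grey matter, against 1.15. Each share is 1 cell, and the same cell enters both measures. The criterion used was the gap to the next animal over the range of the group. Where all other animals have 0%, it sets apart any animal with 1 passing cell, so no rate of chance is given.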

How the results depend on the processing

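The number of class II high cells was within 1.5 times of 216 under class II thresholds of 50 and 200, at 1000 or more genes and without scrublet calls, but 125 with fewer than 2 border macrophage genes. That setting gave 28.8% with dendritic cell genes and 61.6% with microglia markers, and 1000 or more genes gave 75.9% with microglia markers. Thinning to 1000 UMIs lowered the 3 shares to 4.65%, 20.5% and 16.3%. Leaving out 1 barcode ending at a time gave 33.6% to 46.2% with monocyte genes, the lowest without 1_2. Means of per-cell levels moved 16 of 30 named genes outside their counting interval, by factors of 0.623 to 2.99, and none changed direction. Without scrublet calls Rmst went to 0 and Gria2 to 0.0095 UMIs per 10000. With animals not paired (no replicate block) the Smart-seq2 difference was 1.04 percentage points in WT and 0.0737 in Trem2ko-labelled animals, and the exact permutation p was 1 in both. Depth limits every marker share here.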

Other observations

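Across all Smart-seq2 cells, not only the 3 that passed, summed class II reads were higher in white than in grey matter in 6 of 6 WT animals. They averaged 3.44 ± 4.399 reads per 10000 in white matter and 0.647 ± 0.471 in grey matter (SD, n = 6). In white matter A2, A3, A4, A5, A6 and A7 had 1.10, 2.51, 1.62, 12.4, 1.86 and 1.21 reads per 10000. In grey matter the same animals had 0.323, 0.385, 0.560, 1.49, 0.245 and 0.876. The mean difference of 2.80 gave p = 0.03125 in an exact paired permutation test (2-sided), the smallest possible with 6 animals, and 0.0625 after adjustment over the 2 genotypes. The comparison was chosen after seeing the values. Without the passing cell of A5 white matter was higher in 5 of 6 animals, by 0.934 on average (exact permutation p = 0.0625), so the call at 0.05 ended. Without A5 the mean difference was 1.18, and with any 1 animal left out the smallest possible p was 0.0625. In grey matter of A5, 2 pairs of wells correlated over 0.95, and counting each pair once gave a difference of 2.76.

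In animals labelled Trem2ko white matter was higher in 3 of 5, with 2.10 ± 2.84 reads per 10000 in white matter and 1.34 ± 1.37 in grey matter (SD, n = 5, exact paired permutation p = 0.4375). Without the passing cells of A9 these means differed by 0.0089 (p = 0.9375, exact permutation test). These 5 animals include A12, whose Trem2 level went against its label. Whether the tissue difference depends on genotype was not tested.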
